A study of Sus scrofa with 24 samples.

Results

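An atherogenic diet (AD) and control chow (CT) were compared in the peripheral blood mononuclear cells of 8 pigs, 4 on each diet. These 8 arrays were taken by their diet label from the 24 arrays of the series, which cover 6 diet groups of 4 animals. For 4 months the AD animals ate a diet with beef tallow (5.5%), coconut oil (10%) and cholic acid (1%), and the CT animals ate commercial pig chow. Neither group received the grape extract or the resveratrol given in the other groups. Each group held 2 females (animals 1 and 2) and 2 males (animals 3 and 4), numbered in the order of deposit, with 1 array for each animal. The sources used here give neither breed nor age. The contrast taken here asks how the circulating cells differ between the 2 diets, of which AD held the added fats together with cholic acid.

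Beef tallow and coconut oil supply mostly saturated fat, and cholic acid is a bile acid that aids the uptake of fat and cholesterol from the gut. Cells with ample cholesterol lower their own sterol synthesis through the SREBP2 and INSIG system and export cholesterol through transporters such as ABCA1, which the oxysterol receptors (LXR) switch on. Circulating monocytes and T cells meet the lipoproteins of the blood, and in atherosclerosis they enter the artery wall, guided by chemokines and adhesion molecules.

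The RNA fitted the label of a mononuclear preparation. Markers of T cells (CD3G, mean log2 intensity 10.91, CD3E, 10.09), of cytotoxic and NK cells (GNLY, 11.96, CD8A, 11.3) and of monocytes (CTSS, 12.58, CD163, 8.97) were bright in the 8 arrays. Other defining markers were dim, with CD14 at 6.25, PRF1 of the cytotoxic and NK cells at 5.07, CD4 at 4.47 and the integrin ITGAM at 3.59. Red cell and platelet transcripts were present too, with the erythroid haem enzyme ALAS2 at 11.34 and the platelet gene GNG11 at 11.41, and 10 neutrophil genes ran from MMP9 (4.08) to LTF (7.80), NPG4 (7.84) and CHI3L1 (8.04). The animal CT 4 stood apart: its mean correlation with the other arrays was the lowest of all 24 (0.957), and its 3'/5' ratio, a log2 measure of how much signal is lost towards the 5' end of control transcripts, was the highest (4.39). The 3'/5' ratio was 1.64, 3.33, 3.24 and 4.39 in CT 1 to CT 4 and 2.95, 1.37, 1.51 and 2.93 in AD 1 to AD 4. Its group difference of −0.96 had an exact permutation p of 0.143 (two-sided, 4 against 4 animals, with 0.0286 the smallest possible). This permutation p compares these 8 animals, while the limma p-values and SEs below take the spread of each probe set from all 24 arrays. The small number of animals limits the precision of every value. In such bulk RNA, fewer cells of a type and less RNA per cell cannot be told apart.

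No gene passed the test between the diets when males and females were analysed jointly. Limma called 0% of 17999 probe sets at an adjusted p under 0.05, and the smallest adjusted p was 0.633. At an unadjusted p under 0.05 there were 1149, of which 585 were higher and 564 lower in AD, or 455 higher and 659 lower after each array was centred on its median. For 91.6% of probe sets the whole 95% interval stayed within 2-fold. The 4 AD animals all lay above the 4 CT animals for 190 probe sets (1.06%) and all below them for 303 (1.68%), or 493 of 17999 in either direction. For 4 against 4 animals, chance alone separates the groups completely, in either direction, at a rate of 0.0286. A lack of overlap therefore does not by itself mark a gene. The genes described next were picked for small p-values or for large differences without overlap, so their values are a description of these animals.

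Among genes that were higher in AD, FKBP5 had the smallest p. It encodes a chaperone partner of the glucocorticoid receptor and is itself induced by glucocorticoids. Its log2 intensity was 5.08, 5.04, 4.84 and 4.55 in CT 1 to CT 4 and 5.83, 5.98, 5.59 and 5.55 in AD 1 to AD 4. The groups did not overlap, and females and males of AD were about equally far above those of CT (0.85 and 0.88). The difference was 0.86 (SE 0.18, adjusted p = 0.633). A brighter FKBP5 probe set differed by 0.83 in females but by 0.10 in males, with AD 3 (8.65) inside the CT range.

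S1PR1 is the receptor through which sphingosine 1-phosphate draws lymphocytes out of lymphoid organs. It stood at 10.92, 10.99, 10.85 and 10.53 in the CT animals and at 11.16, 11.23, 11.67 and 11.99 in the AD animals. The groups were apart, and the AD males lay highest. The difference was 0.69 (SE 0.15, adjusted p = 0.633), and the other S1PR1 probe sets differed by 0.79 and 0.62.

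CXCR4 binds CXCL12 and holds leukocytes in the marrow and lymphoid tissue. Its values were 10.74, 11.05, 11.06 and 10.79 in CT and 11.10, 11.24, 12.46 and 12.48 in AD. The AD females lay just above the highest CT animal and the AD males well above it. The difference of 0.91 (SE 0.21, adjusted p = 0.633) was made up of 0.27 in females and 1.54 in males, and the interaction of diet and sex did not pass (1.27, adjusted p = 0.126). Of 10 genes for chemokine receptors and trafficking, S1PR1, CXCR4 and CCR7 had no overlap, all higher in AD, as did 50 of all 6033 genes. CCR3, the eotaxin receptor, stood at −0.80 (SE 0.35). The median of the 10 was 0.12, and it was 0.02 after adjustment for the 3'/5' ratio and 0.04 without CT 4.

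The NF-kB and immediate early genes were mostly higher in AD. NR4A2, an orphan nuclear receptor induced within minutes of cell stimulation, read 6.14, 5.84, 5.74 and 5.64 in CT and 7.07, 6.19, 6.98 and 7.39 in AD. No AD animal lay within the CT range, and AD 2 was the closest to it. The difference was 1.07 (SE 0.47, adjusted p = 0.757). NFKBIA, the inhibitor that holds NF-kB in the cytoplasm and is itself an NF-kB target, stood at 10.93, 11.01, 10.87 and 11.22 in CT and at 11.34, 11.59, 11.53 and 11.99 in AD. These groups were also apart, with a difference of 0.60 (SE 0.24, adjusted p = 0.757). The chemokines CCL4 (0.77, SE 0.39) and CCL3L1 (0.80, SE 0.35), which attract monocytes and T cells, had no overlap either.

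CXCL8, the main attractant of neutrophils, read 6.44, 6.51, 5.70 and 4.05 in CT and 6.16, 6.94, 8.99 and 8.76 in AD. The females of the diets overlapped, while both AD males were far above both CT males. The difference was 2.04 (SE 0.91, adjusted p = 0.757), at 0.07 in females and 4.00 in males, and the difference between the sexes did not pass (adjusted p = 0.257). Without CT 4 the joint difference was 1.32. CXCL2, a related neutrophil chemokine, stood at 10.26, 8.88, 8.53 and 6.68 in CT and at 10.46, 10.65, 10.67 and 9.95 in AD. Its AD values were close together, and only CT 1 of the CT animals lay among them, with a difference of 1.84 (SE 0.66, adjusted p = 0.757). IL1B, the interleukin made by activated monocytes, differed by 1.09 (SE 0.55) and TNF by 0.48 (SE 0.30), and both had overlapping animals. Over the alternatives IL1B ran from 0.56 to 1.61 and TNF from 0.30 to 0.63.

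Over the whole list of inflammatory cytokines and NF-kB targets, 20 of 23 genes lay higher in AD (median difference 0.28, and 0.49 without CT 1). Among all 6033 genes, 47.6% were higher, with a median of −0.01. At an unadjusted p under 0.05, 5 of the 23 were higher and 1 was lower, where over all genes the shares were 3.02% and 3.23%. The lower one was TNFSF10, the death ligand TRAIL. Among 29 immediate early genes, 24 lay higher in AD (median 0.26, and 0.15 after adjustment for the 3'/5' ratio). At an unadjusted p under 0.05 there were 6, all higher: RGS1, RGS2, BTG1, SOCS3, NR4A2 and MYC. FOS, EGR1 and ATF3, classical members of that list, stood at 0.02, −0.24 and 0.06. Of the 19 genes of the glucocorticoid response, 16 lay higher. Their median was 0.23, and it was 0.12 without AD 2 and 0.15 without CT 3 or after adjustment for the 3'/5' ratio. The higher ones included PER1, a clock gene with a glucocorticoid response element (0.58, SE 0.26), and the kinase SGK1 (0.37, SE 0.20), while TSC22D3, known as GILZ, stood at 0.14 (SE 0.15) and TXNIP at −0.01 (SE 0.14). The lists share genes, such as CXCR4 and NFKBIA, and limma called 0 members of any of them.

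**Figure D1:**
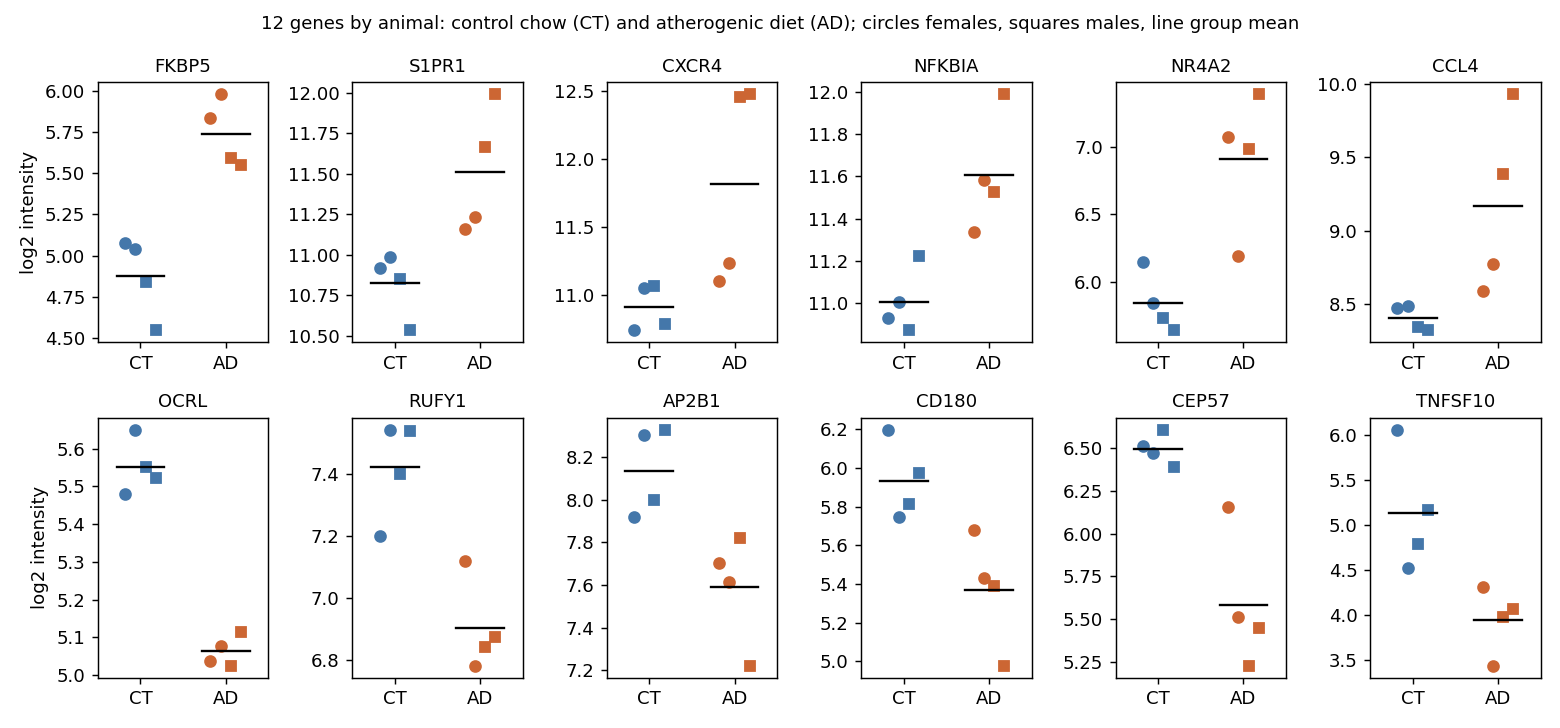
Log2 intensity (vertical axes) of 12 genes in the 4 CT and 4 AD animals, with circles for females, squares for males and a line at each group mean. FKBP5, S1PR1, CXCR4, NFKBIA, NR4A2 and CCL4 (upper row) lie higher in AD and OCRL, RUFY1, AP2B1, CD180, CEP57 and TNFSF10 (lower row) lie lower, without overlap of the groups in any of the 12, and in S1PR1, CXCR4 and CCL4 the AD males lie above the AD females.

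The remaining genes of the higher group with the smallest p were MRPL16, HILPDA, PPTC7, ID1, IVD, GTDC1, ULBP1, RGS1 and EF1ALPHA. IVD differed by 0.56 at a dim probe set but by −0.20 at its brightest one. GTDC1 differed by 0.57 but by only 0.11 at a brighter set. MRPL16 codes for a mitochondrial ribosome protein and differed by 0.55 (SE 0.14), with values of 7.10 to 7.59 in CT and 7.68 to 8.20 in AD. HILPDA, a lipid droplet protein that inhibits the triglyceride lipase ATGL, read 6.96, 7.42, 7.11 and 6.94 in CT and 7.35, 7.48, 7.88 and 8.07 in AD. Only AD 1 lay within the CT range, and the difference was 0.59 (SE 0.17, adjusted p = 0.757). ULBP1, a ligand of the NK cell receptor NKG2D, differed by 0.50 (SE 0.16) without overlap, and ID1, an inhibitor of differentiation factors, by 0.57 (SE 0.17). Both were dim, with CT means of 4.10 and 3.79, and with 16 added to the intensity they differed by 0.28 and 0.29. The largest difference of this group, 1.55 (SE 0.39), came from 1 of 7 probe sets for EF1ALPHA, a translation elongation factor with near-identical copies. The others ranged from −0.53 to 0.63, so the value of that gene is uncertain. PDIA4, a protein disulfide isomerase of the endoplasmic reticulum, differed by 0.76 without overlap at a dim probe set, but by 0.06 at its brightest one. HSBP1, which binds heat shock factor, was likewise at 0.67 without overlap and at −0.06 at a brighter set, and RIPOR2, an inhibitor of RhoA, at 0.68 and 0.01.

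On the lower side, OCRL, a phosphatase that removes a phosphate from phosphoinositides on endosomes, read 5.48, 5.65, 5.55 and 5.52 in CT and 5.04, 5.08, 5.02 and 5.11 in AD. The animals of each diet lay within a narrow band and the bands were apart, by −0.49 (SE 0.10, adjusted p = 0.633). RUFY1, an adaptor of early endosomes, stood at 7.20, 7.54, 7.40 and 7.54 in CT and at 7.12, 6.78, 6.84 and 6.87 in AD. The groups did not overlap, though AD 1 came close to CT 1, and the difference was −0.52 (SE 0.13, adjusted p = 0.633). AP2B1, a subunit of the adaptor that loads cargo into clathrin-coated pits, differed by −0.55 (SE 0.17), and SNX6, a sorting nexin of the retromer, by −0.54 (SE 0.20), both without overlap, while a dimmer AP2B1 set differed by −0.21. The list of 31 endosome and phosphoinositide genes, which holds OCRL, RUFY1 and SNX6 but not AP2B1, had 18 lower members and a median of −0.05, which was 0.01 without CT 2 and 0.004 without AD 4. Those 3 were its only members at an unadjusted p under 0.05, beside 3.23% of all genes on the lower side.

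XPA, which verifies damaged DNA in nucleotide excision repair, read 4.98, 4.98, 5.01 and 4.62 in CT and 4.60, 4.68, 4.10 and 3.97 in AD. CT 4 lay within the AD range, and the difference was −0.56 (SE 0.14, adjusted p = 0.633). DDB2, the sensor of ultraviolet damage, differed by −0.33 (SE 0.13) without overlap. Of 20 DNA repair genes 14 were lower, with a median of −0.14. This median was −0.05 after adjustment for the 3'/5' ratio and −0.08 without CT 4 or without AD 4. XPA and DDB2 were the members at an unadjusted p under 0.05, beside 3.23% of all genes on the lower side.

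CD180, a Toll-like receptor homologue of B cells and myeloid cells, stood at 6.20, 5.74, 5.81 and 5.97 in CT and at 5.68, 5.43, 5.39 and 4.98 in AD. The groups were apart by a small gap, with a difference of −0.56 (SE 0.18, adjusted p = 0.757). The centrosome protein CEP57 differed by −0.91 (SE 0.27), and CTR9, a subunit of the PAF1 elongation complex, by −0.58 (SE 0.15), both without overlap. CPEB4, a regulator of poly(A) tails, differed by −1.57 (SE 0.48), but the animals overlapped, and AD 3 (4.46) lay far below AD 1 (7.31), AD 2 (6.27) and AD 4 (6.93). Without AD 3 the difference was −0.91. FKBP9, a prolyl isomerase of the endoplasmic reticulum (−0.53, SE 0.17), and LOC100517502 (−0.50, SE 0.16) were also on the lower side. NVL, a ribosome assembly ATPase, was at −0.68 but at −0.20 at a brighter probe set. KDELR2, a receptor that returns proteins to the endoplasmic reticulum, was at −0.70 but at −0.15 and −0.13 at brighter sets, and ZFP64, a zinc finger protein, at −0.53 but at −0.19 at both brighter ones.

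CT 1 was the highest animal for 9 of the 10 largest differences without overlap on the lower side, and CT 3 for the other, CEP57. FXYD6, a regulator of the sodium pump, read 10.92, 8.77, 9.28 and 8.70 in CT and 8.27, 8.36, 8.07 and 6.94 in AD. The difference was −1.51 (SE 0.55, adjusted p = 0.757), and CT 1 stood well above the other CT animals. TNFSF10 stood at 6.06, 4.52, 4.79 and 5.17 in CT and at 4.31, 3.44, 3.98 and 4.07 in AD. CT 1 was again the highest, and the difference was −1.19 (SE 0.41, adjusted p = 0.757). CT 1 was also the highest of the 8 animals for GGTA1P (9.61), TLN1 (7.51), EFR3A (7.03), USF2 (7.66), CDC5L (8.80), CCDC88A (4.63) and KIAA1551 (7.78). For GGTA1P, TLN1 and CDC5L other, brighter probe sets of the same gene differed by only −0.09, −0.05 and −0.07, and for KIAA1551 4 of 6 probe sets were higher in AD. The values of these 4 genes therefore hold for single probe sets.

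With males and females analysed jointly, genes of lipid metabolism were spread around 0 much as all genes were. Of 94 genes in 6 lists (sterol synthesis, cholesterol efflux and LXR targets, lipoprotein and scavenger receptors, fatty acid uptake and storage, fatty acid oxidation and PPAR targets, and nuclear receptors), 44 were higher and 50 lower in AD, with a median of −0.02. At an unadjusted p under 0.05 there was 1 higher and 3 lower, where over all genes the shares were 3.02% and 3.23%. The 95% interval lay within 2-fold for 93.6% of them and for 92.5% of all genes. Among these 94, a difference of more than 0.5 was measured for MYLIP and ABCA1 alone. The lipid droplet gene HILPDA (0.59), described above, is in none of the 6 lists.

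Within sterol synthesis, 7 of 15 genes were higher, with a median of −0.03. This joint value hides a split by sex. In females 1 of the 15 was higher (median −0.33) and in males 8 were (median 0.04). Among all 6033 genes, 2641 were higher in females and 3060 in males. SQLE, squalene epoxidase, read 7.23, 7.33, 7.04 and 6.74 in CT and 6.50, 6.68, 6.89 and 6.62 in AD. The groups overlapped through CT 4 and AD 3, and the difference was −0.41 (SE 0.23, 95% interval −0.89 to 0.07). FDFT1, squalene synthase, was the member without overlap, at −0.29 (SE 0.15), with all AD animals between 8.02 and 8.09. HMGCS1 stood at −0.20 (SE 0.26) and the feedback regulator INSIG1 at 0.09 (SE 0.29), the latter with the sign turned when CT 4 or AD 4 was left out. ABCG1, CD36, PDK4, PPARG and VDR were not among the tested probe sets with a single symbol and were not analysed here.

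Among efflux genes, the transporter ABCA1 stood at 7.32, 7.05, 6.91 and 6.24 in CT and at 6.84, 6.06, 5.47 and 6.78 in AD. The animals overlapped widely, with a difference of −0.59 (SE 0.31, 95% interval −1.24 to 0.06), which was −0.32 without AD 3. MYLIP, a ubiquitin ligase induced by LXR, read 9.16, 9.80, 10.10 and 9.98 in CT and 10.35, 9.60, 10.64 and 11.31 in AD. AD 2 lay within the CT range and the other AD animals above it, with a difference of 0.71 (SE 0.26, adjusted p = 0.757). NR1H3, the LXR alpha receptor itself, stood at −0.18 (SE 0.22), and of the 15 genes of that list 9 were lower, with a median of −0.05.

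FADS1, the delta-5 desaturase, read 4.37, 4.65, 4.57 and 4.49 in CT and 4.10, 4.13, 4.27 and 4.33 in AD. The groups were apart by a narrow gap at a low signal, with a difference of −0.31 (SE 0.14). SCD, which makes monounsaturated fatty acids, stood at −0.29 (SE 0.14), and ACAA2, a thiolase of beta oxidation, at −0.31 (SE 0.13). CPT1A, the gate of fatty acid entry into mitochondria, differed by 0.80 in females and by 0.02 in males, where CT 3 and CT 4 (10.22 and 10.11) already lay above the AD females (9.35 and 9.70). PLIN2, the lipid droplet coat protein, stood at 0.24 (SE 0.23), with animals that overlapped.

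**Figure D2:**
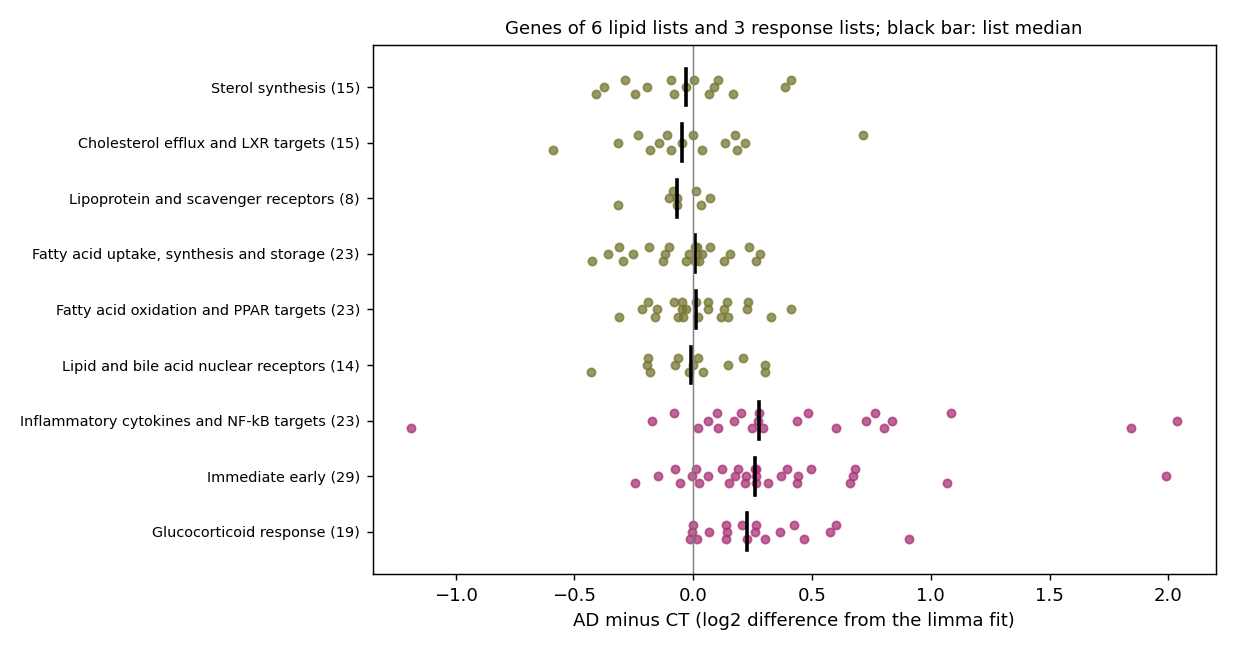
Each point is the log2 difference AD minus CT of 1 gene (horizontal axis), by list, with the number of genes in brackets and a black bar at the list median. The 6 lipid lists have medians between −0.07 and 0.01, and the 3 response lists have medians of 0.28, 0.26 and 0.23, with CXCL8 (2.04), RGS1 (1.99) and CXCL2 (1.84) at the far right and TNFSF10 (−1.19) at the far left.

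Markers of cell types varied widely between animals of the same diet. Values here are means of a list relative to its mean over all 24 arrays. The T cell list was 0.10, −0.30, −0.36 and −1.09 in CT 1 to CT 4 and −0.17, 0.07, 0.26 and −0.24 in AD 1 to AD 4. CT 4 was the lowest animal, and the diets overlapped. In AD 14 of the 15 genes lay higher (median 0.31). Without CT 4 this median was 0.12, and after adjustment for the 3'/5' ratio it was 0.05. CD2 (0.94, SE 0.61) and CD3D (0.85, SE 0.54), parts of the T cell surface complex, had overlapping animals, while the dim CD4 and CCR7 did not overlap (0.31 and 0.28). The list of MHC class II presentation had 10 of 13 genes higher and a median of 0.27, which was 0.01 without CT 4 and −0.03 after adjustment for that ratio. SLA-DRA, its most variable member, ran from 8.43 in CT 4 to 12.43 in CT 1 within the CT group.

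Monocyte genes were level. Of 21 genes 10 were higher and 11 lower, with a median of −0.003, and the list mean was −0.04 to 0.55 in CT and 0.16 to 0.39 in AD. CD14, the coreceptor for lipopolysaccharide, ranged from 4.31 to 7.66 in CT and from 5.57 to 8.16 in AD, so its difference of 1.01 (SE 0.77) lay within the spread of the animals. It ran from −0.08 after adjustment for the 3'/5' ratio to 1.74 without CT 1. TLR2 (0.24, SE 0.33) and TLR4 (−0.14, SE 0.27) were within it too.

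Neutrophil, platelet and red cell transcripts were prominent in single animals. The neutrophil list was 0.03, −0.06, −0.09 and 1.75 in CT and 1.02, 0.30, −0.18 and 0.23 in AD. CT 4 stood far above the other CT animals, and AD 1 was the next highest. LTF, the granule protein lactoferrin, was 11.10 in CT 4 and 6.22 to 7.63 in the other CT animals. The platelet list was −0.24, −0.08, 1.33 and 0.26 in CT and 0.02, 0.65, −0.34 and −0.90 in AD, with 12 of 15 genes lower in AD. Its median of −0.49 was −0.02 without CT 3. The erythroid list was −0.15, −0.48, 0.22 and 1.60 in CT and 0.59, −0.54, −0.62 and 0.07 in AD, and its median of −0.41 was −0.0005 without CT 4. Cell cycle genes, 24 of 29 lower in AD with a median of −0.25, were highest in CT 4 (0.52) and CT 3 (0.24), and the median was −0.11 without CT 4. A fit with the platelet, erythroid and neutrophil list means as covariates is given below for the calls in males. Beyond that fit, the part of these cells in the differences of other genes was not tested.

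**Figure D3:**
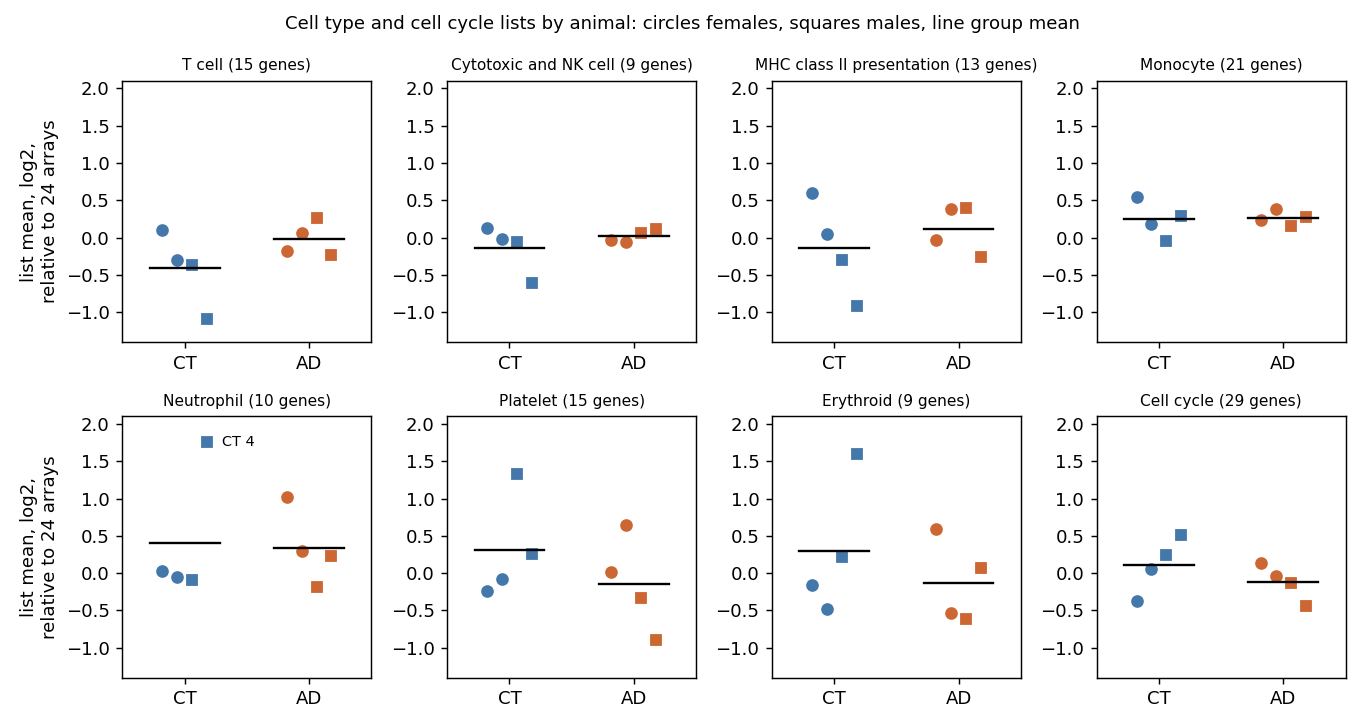
Mean log2 level of 8 gene lists relative to the mean of 24 arrays (vertical axes) in each CT and AD animal, with circles for females, squares for males and a line at the group mean. The animals of the 2 diets overlap in each list, CT 4 lies highest for neutrophil (1.75) and erythroid (1.60) and lowest for T cell genes (−1.09), and CT 3 lies highest for platelet genes (1.33).

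The contrast was also taken within each sex. In males limma called 169 probe sets higher (0.939%) and 73 lower (0.406%) in AD, of which 135 had a single symbol and named 128 genes. In females it called 1 (0.00556%). The interaction of diet and sex, which tests whether the contrast differs between the sexes, passed for 21 (0.117%), 17 higher and 4 lower. These are contrasts of 2 against 2 animals, with the spread taken from all 12 groups of diet and sex. Of the 242 called in males, 76 (31.4%) had the same sign in females, and the median size was 1.03 in males and 0.16 in females.

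PSAT1, an enzyme of serine synthesis, had the smallest adjusted p in males. It read 4.88 and 4.94 in the CT females, 7.04 and 7.03 in the CT males, 5.18 and 5.31 in the AD females and 5.08 and 5.10 in the AD males. The CT males alone were high, and the 16 animals of the other 4 groups lay between 4.94 and 6.04. The difference was −1.95 in males (adjusted p = 0.00224) and 0.34 in females, and the interaction passed (−2.28, adjusted p = 0.0222). It was called in males without any single male array and was the only call of 242 that array weights kept (adjusted p = 0.0331), but not with the platelet, erythroid and neutrophil means in the fit (adjusted p = 0.218).

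Of the 15 platelet genes 2 were called lower in AD males, beside 0.406% of all probe sets. These were CAVIN2, a caveola protein (−3.49, adjusted p = 0.025), and VWF, von Willebrand factor (−3.29, adjusted p = 0.0319), whose dimmer probe sets differed by 0.22 and −0.002 in males. JAM3, a junctional adhesion molecule (−1.79, adjusted p = 0.0197), DDAH1, which degrades an inhibitor of nitric oxide synthesis (−3.38, adjusted p = 0.0197), and the spermine oxidase SMOX (−2.18, adjusted p = 0.0443) were called as well. DDAH1 read 10.44 and 10.09 in the CT males and 7.15 and 6.61 in the AD males, and the 16 animals of the other 4 groups reached at most 9.14. In females the difference of DDAH1 was 0.90 and that of VWF 1.23. The embryonic globin HBE1 (−2.99) and the mitotic protein CENPF (−2.05) were also called. With the 3 blood cell lists in the fit the differences in males were −0.68 for CAVIN2, −1.44 for DDAH1, −0.43 for HBE1 and −2.51 for CENPF, and none of these passed. CAVIN2 is a member of the platelet list and HBE1 of the erythroid list, so part of the smaller size of these 2 is built into that fit.

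Among the genes called higher in AD males, CXCR4 (1.54, adjusted p = 0.0133), S1PR1 (1.14, adjusted p = 0.00995), the signal adaptor TIFA (1.78, adjusted p = 0.0355), the pro-apoptotic BH3 protein PMAIP1 (2.07, adjusted p = 0.0296) and the activin antagonist FST (1.85, adjusted p = 0.0443) had only small differences in females, between −0.03 and 0.27. A brighter FST set differed by 0.77 in males. None of the 23 inflammatory genes was called in males. GPR183, an oxysterol receptor that guides B and T cells, had the largest difference, at 8.15, 6.35, 6.19 and 4.60 in CT and 6.28, 7.58, 9.0 and 7.46 in AD. CT 4 was the lowest of all, both AD females lay within the CT range, and the difference of 2.83 in males lay at the threshold (adjusted p = 0.05). A brighter GPR183 probe set differed by 0.67 in males. For LCP1, an actin bundler, the called set differed by 1.95 in males and the brightest of its 5 sets by 0.004. CNOT7, a deadenylase (2.1 and 0.06), and RASGEF1B, an exchange factor for small GTPases (1.77 and 0.30), likewise differed less at a brighter set.

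The calls in males rested on few arrays. Without AD 3 the call was lost for each of 16 genes followed (8 in each direction, the largest called) other than PSAT1, and without CT 4 for each other than PSAT1 and JAM3. CXCR4, for example, stood at 1.56 (adjusted p = 0.0553) and 1.4 (adjusted p = 0.0597) in those fits. CT 4 was the most extreme of all 24 arrays, on the side of the call, for 170 of the 242, and CT 3 for 42. Both CT males lay beyond all 22 other arrays for 87, and both AD males did so for 31. Without CT 4 limma called 50 in males, 7 higher and 43 lower, of which 26 were among the 242. Without AD 3 it called 18, and 15 of these were among the 242. Without CT 3 it called 1544, which included 214 of the 242, and without AD 4 190, which included 81. The 3'/5' ratio was 3.24 and 4.39 in the CT males and 1.51 and 2.93 in the AD males, and after adjustment for it 214 were called, 91 higher and 123 lower, 97 of them among the 242.

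Of the genes whose diet contrast differed between the sexes, KMO, an enzyme of the kynurenine pathway, was the single gene called in females. It read 8.45 and 8.87 in the CT females, 6.73 and 6.66 in the CT males, and 6.60, 7.19, 6.93 and 6.66 in AD 1 to AD 4. Only the CT females stood high among the 8 animals, and the difference was −1.76 in females (adjusted p = 0.0329) and 0.10 in males, with an interaction of 1.86 (adjusted p = 0.0471). In the other groups KMO ran from 5.95 to 8.5, and the males of AD-RES (mean 8.48) and of CT-GE-RES (mean 8.06) were also high. Without CT 2 or without AD 1 no gene was called in females, and without CT 1 there were 3.

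MSMO1, a sterol methyl oxidase of cholesterol synthesis, stood at 7.31, 7.58, 6.83 and 6.32 in CT and at 6.70, 7.24, 7.95 and 7.81 in AD. It was lower in AD among females (−0.48) and higher among males (1.3, adjusted p = 0.0152), and the interaction of 1.78 passed (adjusted p = 0.0469). The interaction was also called for ARHGAP5, MTMR6, TRMT10C, NUDT9, CLP1 and TGIF1, with values between 1.41 and 2.06. At the called probe sets each was lower in AD among females and higher among males. ARHGAP5, the largest of these, was dim, with a mean of 3.29 in the CT males. With 16 added to the intensity its interaction was 1.04. For TGIF1 the difference in females was only −0.10, and it was 0.20 at a dimmer set. For MTMR6 a brighter probe set gave 0.35 in females and 0.02 in males, so its call holds for a single probe set. HSP70.2, a heat shock protein, had the opposite direction (−2.08, adjusted p = 0.0471). No interaction was called without CT 2 or without AD 4, and 1 was called without AD 1 and 1 without AD 3, the first of which was among the 21. Without CT 3 there were 961, which included all 21. Without CT 4 the count was again 21, but with 3 higher and 18 lower and only 6 of them among the first 21.

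Over the 37 gene lists with at least 5 genes, the median was further from 0 in males than in females for 25, and 19 had opposite signs in the sexes. Platelet genes were at 0.57 in females and −1.35 in males, erythroid genes at 0.31 and −1.12, neutrophil genes at 0.29 and −0.50, and cell cycle genes at 0.22 and −0.60. MHC class II genes were at −0.06 and 0.67 and inflammatory genes at 0.19 and 0.62. The difference of a list between the sexes was not tested.

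**Figure D4:**
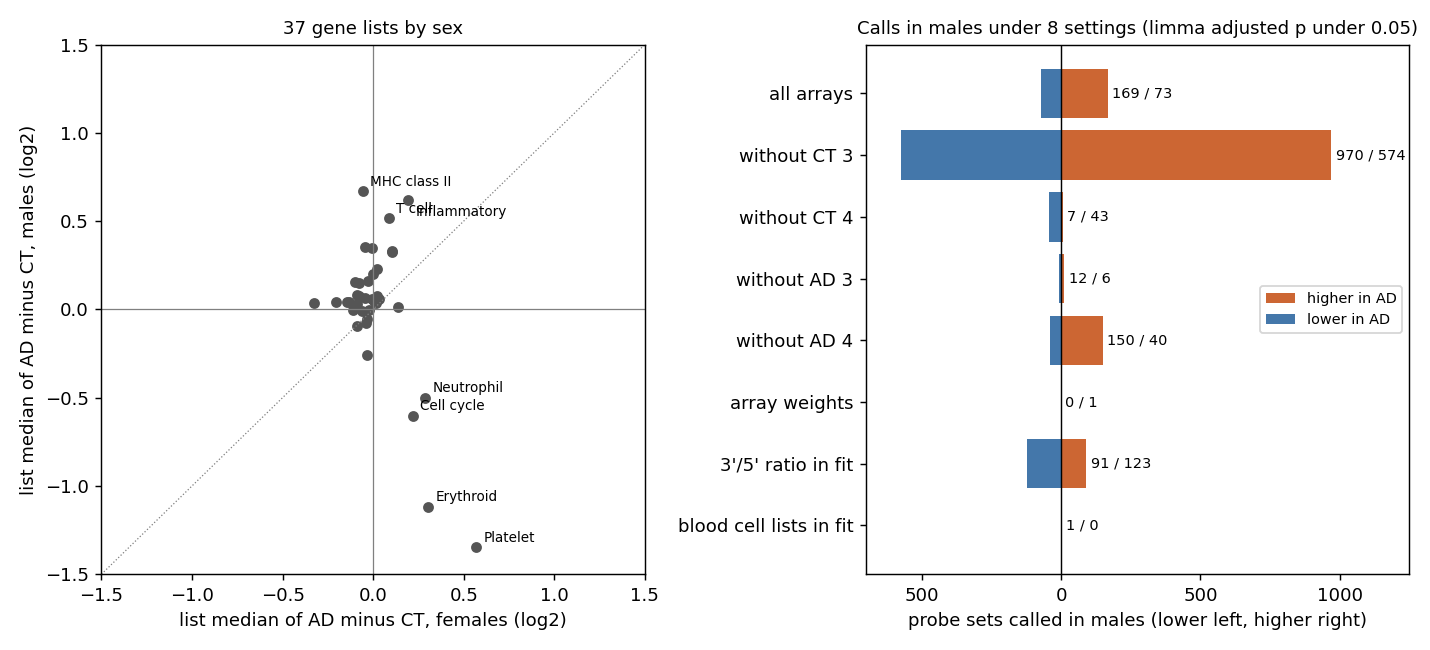
Left, median log2 difference AD minus CT of each of 37 gene lists in females (horizontal) and males (vertical), with a dotted line where both are equal. Right, number of probe sets called in males under 8 settings, higher in AD to the right and lower to the left, which falls from 242 to 50 without CT 4, to 18 without AD 3 and to 1 with array weights or with blood cell lists in the fit.

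The same diet pair was also measured in animals that received grape extract (1 g per 70 kg of body weight) and resveratrol (18 mg per 70 kg). These were AD-GE-RES and CT-GE-RES, which share no array with AD or CT. In that pair limma called 0% of 17999 probe sets, and 810 had an unadjusted p under 0.05. The 39 genes chosen for small p or for large differences without overlap had the same sign there for 31 (79.5%), where over all probe sets the share was 54.8%. The difference was smaller in size for 38 of the 39, which had been picked on AD and CT. The difference between the 2 diet contrasts passed for 0 of 17999 probe sets, with 561 at an unadjusted p under 0.05.

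CXCR4 differed by 0.77 (SE 0.21) between AD-GE-RES and CT-GE-RES, beside 0.91 between AD and CT. Among males its mean was 10.93 in CT and 11.28 in CT-GE-RES. It was 12.47 in AD, 12.17 with grape extract alone (AD-GE), 11.97 with both agents and 11.50 with resveratrol alone (AD-RES). Both chow means lay below each mean of an atherogenic group. CD180 (−0.60, SE 0.18) and AP2B1 (−0.47, SE 0.17) also kept their sign and a similar size. NR4A2 (0.92) and CCL4 (0.74) had the same sign too. FKBP5 was at −0.08 (SE 0.18), RUFY1 at −0.04 and OCRL at −0.03, each within 1 SE of 0. For FADS1 (−0.50), SCD (−0.30), SQLE (−0.43) and FDFT1 (−0.36) the sign was the same in both pairs, and for ABCA1 it was turned (0.50). List medians in the supplemented pair were 0.23 (inflammatory), 0.24 (immediate early), 0.08 (glucocorticoid response) and −0.15 (T cell). Platelet genes were at −0.73 there (2 of 15 higher) and cell cycle genes at −0.43 (3 of 29 higher), with the sign they had in AD against CT. Erythroid (0.12) and neutrophil genes (0.19) had the opposite sign. Sterol synthesis genes were at −0.15 (3 of 15 higher), beside −0.03 over all genes (2584 of 6033 higher).

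**Figure D5:**
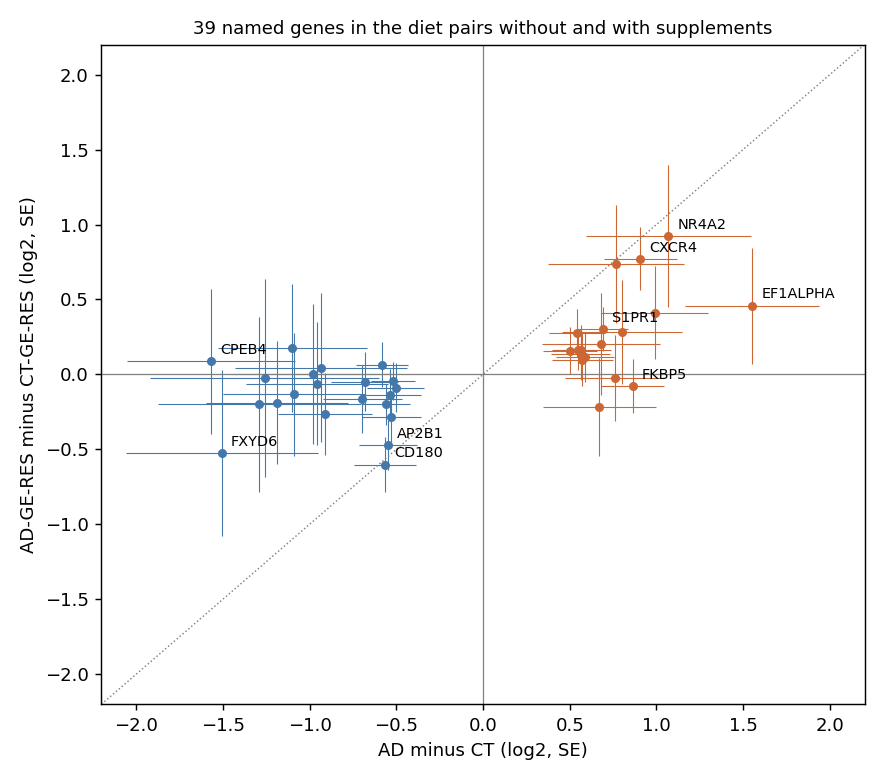
Log2 difference AD minus CT (horizontal) and AD-GE-RES minus CT-GE-RES (vertical) of the 39 named genes, with bars of 1 SE and a dotted line where both are equal. Orange genes were higher and blue genes lower in AD. CXCR4, NR4A2, CD180 and AP2B1 lie near the line, while FKBP5 (−0.08) and CPEB4 (0.09) lie near 0 on the vertical axis.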

How the data were processed

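Total RNA of the mononuclear cells had been labelled with biotin and hybridised to Affymetrix porcine arrays, 1 per animal. The deposited files give, for each array, an intensity on a linear scale at every probe set. RMA and GCOS are the tools named per the submitters' processing notes; their versions and roles are not given in the sources used here. Intensities (3.42 to 25100) were taken to log2. Of 24123 probe sets, 124 controls were set aside and the lowest 25% by mean over all arrays left out, which left 17999. Of these, 8540 had 1 symbol in the platform's annotation (6033 genes), 168 several and 9291 none; only those with 1 symbol were named, and 0 of the 9666 symbols checked by Entrez ID against RefSeq differed. Genome positions were not used.

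Limma 3.58.1 in R 4.3.3 fitted 6 group means and sex to all 24 arrays, with empirical Bayes moderation, two-sided tests and p-values adjusted by Benjamini and Hochberg over 17999 probe sets (threshold 0.05). Males, females and their difference came from a fit with 12 groups of diet and sex. The method was tested on simulated data.

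Of 41 gene lists, 37 had at least 5 genes. For AD against CT the genes named were, in each direction, the 12 genes called or with the smallest p and a difference of at least 0.5, and the 10 with the largest difference among those without overlap. Added to these were 8 called in each direction in males or between the sexes, the 4 smallest p of each list, and a panel of 31 genes, of which 24 were tested. Lists and panel use the brightest probe set and the other named genes the one with the smallest p; not every gene of the lists or panel is described. The gene set, the lists and the rules were chosen with earlier results of these data known. Other genes named from the lists were chosen after their values were seen.

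Alternatives changed the sex term, the arrays in the fit, the filter, the normalization, a constant added to the intensity, array weights, the variance prior, covariates (3'/5' ratio, blood cell lists) and single arrays. Running them for the supplemented pair, and for single genes in males and between the sexes, was added after seeing the data.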

Additional observations from a re-analysis of the deposited data

Results flagged for a closer look

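Values that stood apart from the other 3 animals of their diet were looked for with Dixon's ratio at its 95% critical value over 202 sets of 4 values, and 9 were found, where chance gives about 1 in 20. The neutrophil list mean of CT 4 (1.75) was far above the other CT animals (−0.09 to 0.03). GGTA1P was at 9.61 in CT 1, against 7.98 to 8.25 in the others. XPA was at 4.62 in CT 4 (others 4.98 to 5.01) and ULBP1 at 3.83 in CT 2 (others 4.17 to 4.19). Among AD animals, AD 3 was high for RIPOR2 (7.05, others 6.64 to 6.71) and LCP1 (8.56, others 7.79 to 7.88). In 3 lists the gap was large only beside a very narrow spread: cholesterol efflux (CT 3, 0.0287), nuclear receptors (CT 3, −0.119) and chemokine receptors (CT 2, 0.0684).

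Limma's interaction test of diet and sex passed for ARHGAP5 (2.06), KMO (1.86), MTMR6 (1.84), MSMO1 (1.78), TRMT10C (1.62), NUDT9 (1.58), CLP1 (1.54), TGIF1 (1.41), HSP70.2 (−2.08) and PSAT1 (−2.28). These were the largest in each direction among 14 genes called, from 2 against 2 animals in each sex. No interaction was called with array weights, without CT 2 or without AD 4, and the call of MTMR6 holds for a single probe set. The dim ARHGAP5 was at 1.04 with 16 added to the intensity. For 2 lists every male moved against every female. The platelet mean differed by −1.42 in males and 0.50 in females, a gap of −1.92, and the cytotoxic and NK mean by 0.42 and −0.10, a gap of 0.53. Neither gap was tested.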

How the results depend on the processing

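AD against CT gave 0 calls under each of the 19 alternatives run. The count at an unadjusted p under 0.05 (1149) was 762 with array weights, 733 after adjustment for the 3'/5' ratio and 860 to 2143 with single arrays left out, the highest without CT 1. The 242 calls in males became 364 with 16 added to the intensity, 1 with array weights, 1 with the blood cell lists and 18 to 1544 without single males. The call in females was lost (0 calls) with repeated quantile normalization, array weights and the blood cell lists, and the count was 0 to 3 without single females. The 21 interactions became 5 with quantile normalization, 0 with array weights, 109 with the 3'/5' ratio, 2 with the blood cell lists and 0 to 961 without single arrays. The 39 genes named for AD against CT kept their sign throughout, which their choice favours. Among the panel genes the sign turned for CD14 after adjustment for the 3'/5' ratio (−0.0791) and for TXNIP with array weights (0.0168). With single arrays left out, TXNIP ran from −0.106 to 0.0576, IL10 from −0.136 to 0.290, INSIG1 from −0.0514 to 0.267 and ICAM1 from −0.0711 to 0.198. The causes were not tested. With 4 arrays a diet the median SE of a difference was 0.154.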

Other observations

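Other gene groups of the cells were close to level between AD and CT. Of 63 cytosolic ribosome genes 46 lay higher (median 0.04), and each of their 95% intervals lay within 2-fold. Proteasome genes (median 0.05, 26 of 34 higher), mitochondrial ribosome genes (−0.01, 28 of 58), oxidative phosphorylation genes (−0.04, 21 of 59) and glycolysis genes (0.03, 11 of 20) showed no larger shift. Antioxidant genes had a median of −0.03, with 12 of 31 higher, and the glutathione synthesis subunit GCLM at −0.35 (SE 0.15). Interferon-stimulated genes were lower in 15 of 22 (median −0.11), and without CT 1, which had the highest list mean (0.95), the median was 0.08. Lysosome (−0.05), complement and coagulation (−0.02), Toll-like receptor (0.06), MHC class I (0.07), integrin (−0.04), eicosanoid (−0.11) and sirtuin, AMPK and FOXO lists (−0.05) lay near 0 as well.

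Some genes of protein folding and cell death differed within lists whose medians lay near 0. The cochaperone DNAJB4 (0.62, SE 0.21), the ER chaperone HSPA5 (0.30, SE 0.12) and the constitutive HSPA8 (0.26, SE 0.10) were higher in AD, and the stress-induced HSPA6 was lower (−0.45, SE 0.19), in a chaperone list with a median of 0.10. The apoptosis list had a median of 0.03, with 10 of 20 genes higher. CFLAR, the inhibitor of caspase 8, read 8.89, 8.73, 8.91 and 8.11 in CT and 9.16, 8.94, 9.41 and 9.13 in AD, without overlap (0.50, SE 0.16). BAX, the mitochondrial pore protein, also had no overlap (0.45, SE 0.17). None of these passed by limma over all probe sets. The 4 B cell genes measured (CD79B, BLNK, SPIB and CD40) were lower in AD, between −0.42 and −0.18, and too few for a list.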
